A study of Mus musculus with 9 samples.

Results

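The loci described here are places outside protein-coding genes where the glucocorticoid receptor (GR) was called in granulosa cells 6 h after human chorionic gonadotropin (hCG), was not called before hCG, and where no peak of H3K27ac had been called before hCG either. They number 691 of 18570 merged GR loci (3.72%). The loci were chosen by the peak calls themselves: peaks of the 4 GR lists on chromosomes 1 to 19 and X were merged where they overlapped by 1 bp or more, and a locus was kept if both 6 h lists, and none of the 0 h lists, had a peak in it. It also had to lie more than 1 kb from both ends of every protein-coding gene, outside the span of every such gene, and outside every peak of the H3K27ac list. GR peaks at 6 h, none at 0 h, no H3K27ac peak and the location are therefore what defined the class and are not results.

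The cells came from wild-type CBA x C57BL/6 F1 mice aged 21 days. All mice were first given equine chorionic gonadotropin (eCG; 5 IU), a hormone that drives follicle growth. After 44 h the 0 h group was killed without further treatment, and the 6 h group was injected with hCG (5 IU), used in place of the luteinising hormone surge, and was killed 6 h later. Granulosa cells were released by puncturing the ovaries. Chromatin immunoprecipitation followed by sequencing was done with antibody sc-8992 against GR (2 libraries at 0 h and 2 at 6 h) and with an antibody against H3K27ac (1 library, at 0 h). No group was held for 6 h without hCG, so hCG cannot be told apart from the injection and the passage of time, and the labels do not say whether replicates were separate mice or pools. H3K27ac was mapped only before hCG, so the acetylation of these loci at 6 h is not known. The other 4 of the 9 samples were not analysed here, and peak positions offer no marker transcripts by which the purity of the cells could be checked.

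GR is a nuclear receptor that binds DNA when it carries a glucocorticoid such as corticosterone. Its classical element is a pair of inverted hexamers, and much of its binding in many tissues lies at enhancers far from genes, often where other factors have already opened the chromatin. Acetylation of lysine 27 of histone H3 (H3K27ac) marks active enhancers and promoters. In the preovulatory follicle, the luteinising hormone surge switches granulosa cells towards ovulation and luteal differentiation.

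Sequence under these loci could be read where a locus fell on the annotated start of a long non-coding RNA (lncRNA) gene, since the sequences at hand were 300-base promoter windows (250 bases before and 50 after a gene's start; RefSeq, GRCm38.p6, which shares its coordinates with the mm10 build of the peak lists). Of the 691 loci, 672 were on chromosomes with windows in the table. Of these, 16 overlapped such a window, and 12 had the summits of both 6 h peaks inside one; all 12 windows belonged to lncRNA genes. The 6 printed here are the best ranked of those whose summits both lay at least 40 bases from the window's edges, so that the bases around the point of highest GR signal can be seen. Each is printed 5′ to 3′ on the strand of its lncRNA gene, with up to 75 bases to each side of the point midway between both summits. Capitals mark a GR hexamer (AGAACA or its complement TGTTCT, each one arm of the full element), an AP-1 site (TGACTCA or TGAGTCA), the C/EBP palindrome TTGCGCAA, or a full GR element with at most 2 mismatches.
Gm35268 (chr19:27312725-27312875, plus strand): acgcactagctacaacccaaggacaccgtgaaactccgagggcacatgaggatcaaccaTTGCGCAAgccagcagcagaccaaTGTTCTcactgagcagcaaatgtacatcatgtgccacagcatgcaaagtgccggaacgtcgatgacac
4930529N20Rik (chr13:35167877-35168027, minus strand): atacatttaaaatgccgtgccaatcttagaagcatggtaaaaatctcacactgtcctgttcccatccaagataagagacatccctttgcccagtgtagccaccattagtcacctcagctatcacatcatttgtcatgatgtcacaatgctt
Gm6093 (chr13:33569430-33569567, minus strand): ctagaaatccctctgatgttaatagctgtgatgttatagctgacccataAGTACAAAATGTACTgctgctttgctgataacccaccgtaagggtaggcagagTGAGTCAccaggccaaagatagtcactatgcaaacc
Gm33424 (chr13:52985872-52986014, plus strand): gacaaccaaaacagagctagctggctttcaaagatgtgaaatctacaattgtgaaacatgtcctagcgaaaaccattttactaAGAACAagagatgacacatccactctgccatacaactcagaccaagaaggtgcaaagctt
Gm30684 (chr7:38061451-38061601, minus strand): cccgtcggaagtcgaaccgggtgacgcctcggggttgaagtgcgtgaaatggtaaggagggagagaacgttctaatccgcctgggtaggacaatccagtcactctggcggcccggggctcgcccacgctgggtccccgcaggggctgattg
Gm36139 (chr1:151087915-151088065, minus strand): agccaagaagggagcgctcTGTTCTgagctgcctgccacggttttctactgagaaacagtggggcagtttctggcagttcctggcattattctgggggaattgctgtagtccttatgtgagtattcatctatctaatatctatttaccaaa

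The strongest of the 6, at the start of Gm35268 between Vldlr, a lipoprotein receptor gene, and Kcnv2, a potassium channel subunit gene, had fold enrichments of 21.8 in 6 h replicate 1 and 22.0 in replicate 2. Its summit lay between a C/EBP palindrome at bases 60 to 67 of the printed stretch and a GR hexamer at bases 84 to 89, the summit itself being base 76. The locus at the start of Gm33424, 2624 bp upstream of the clock and cytokine regulator gene Nfil3, likewise held a GR hexamer centred 10.5 bases from the summit, with fold enrichments of 11.5 and 10.7. At Gm6093 a sequence that departs from the full GR element at 2 bases was centred 6 bases from the summit, and an AP-1 site was centred 43 bases from it. At Gm36139 the hexamer lay 53.5 bases from the summit, and the stretches at 4930529N20Rik and Gm30684 held none of the sites marked in capitals. Summits were determined in each 6 h library separately. The distances above are from their midpoint, which carries that uncertainty. In replicates 1 and 2 the summits were at bases 132 and 75 of the window at 4930529N20Rik and 258 and 207 at Gm33424. They were at bases 81 and 46 at Gm6093 and 72 and 97 at Gm30684. They lay closer together at Gm35268 (174 and 178) and Gm36139 (197 and 207).

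Over whole windows and both strands, the GR hexamer was in 7 of the 12 (58.3%, 95% Wilson interval 32.0 to 80.7, counting error only). Not all of these hexamers lay near the summit. Besides those marked above, the nearest was 69 bases from it at Gm51962, 163 at 4930529N20Rik, 171 at Gm6093 and 272 at 8430426J06Rik. The same letters were in 19% of all 32851 windows, in 24.0% of the 11575 windows of lncRNA genes, in 36.8% of the 57 windows that held both summits of any locus called only at 6 h, and in 10.8% of the 1153 that held both 6 h summits of a locus called in all 4 libraries. The 57 windows include the 12. AP-1 sites were in 2 of the 12 (16.7%), against 19.3% of the 57 windows of loci called only at 6 h and 5.20% of all windows, and the C/EBP palindrome in 1 against 0.183%. The looser C/EBP form TTNNGNAA, which includes the palindrome, was in 5 of the 12 (41.7%) against 40.7%. RUNX sites (TGTGGT) were in 4 (33.3%), against 22.8% of the 57 and 16.8% of all, and GATA sites (AGATAA) in 1 (8.33%) against 11.2%. The sites of the nuclear receptors NR5A1 and NR5A2 (CAAGGTCA) and of CREB (TGACGTCA) were in none of the 12, against 1.56% and 1.79% of all windows. The full GR element (AGAACA and TGTTCT with 3 bases between them) was in none, exactly or with 1 mismatch, and in 1 of the 12 with 2 mismatches allowed (8.33%, against 5.26% of the 57 and 1.84% of all windows). In the 11575 windows of lncRNA genes, the kind to which all 12 belong, AP-1 sites were in 6.20%, RUNX sites in 20.1% and GATA sites in 14.0%. The C/EBP palindrome was in 0.112% of them, its looser form in 46.9%, CAAGGTCA in 1.96% and TGACGTCA in 0.976%. The full GR element with 2 mismatches allowed was in 2.25%. With 12 windows, and those of lncRNA starts alone, all these shares describe the windows and not the 691 loci.

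Among all merged GR loci, 2805 were called in both 6 h libraries and neither 0 h library (15.1%), and the 691 loci made up 24.6% of them (23.1 to 26.3). They were 64.9% of the 1065 such loci outside genes and 40.6% of the 1702 outside H3K27ac. Of all 1387 loci that lay outside genes and outside H3K27ac, 691 (49.8%) were called in both 6 h libraries alone. A further 310 were called in 6 h replicate 1 alone and 254 in replicate 2 alone. Only 52 (3.75%) were called at both times, 14 of them in all 4 libraries, and 80 (5.77%) were called in 0 h libraries alone, 21 of them in both. Outside genes but in H3K27ac there were 2022 loci, of which 374 (18.5%) were called in both 6 h libraries alone, 755 (37.3%) at both times and 530 (26.2%) at 0 h alone.

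**Figure D1:**
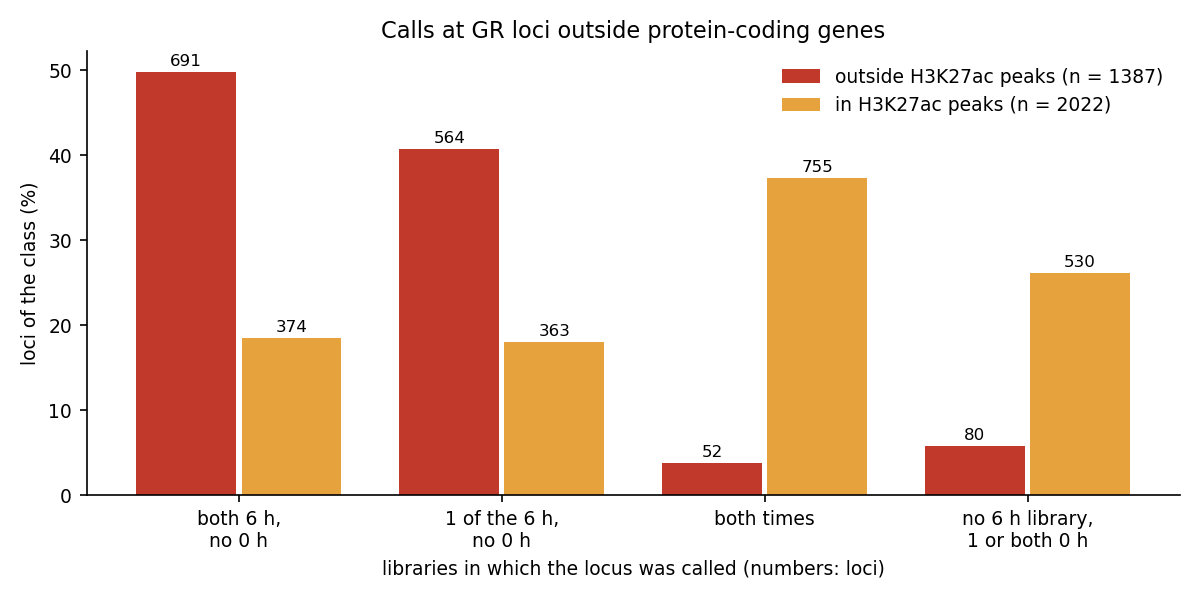
Share of the GR loci outside protein-coding genes, in percent of each class, by the libraries in which they were called; red bars are loci outside H3K27ac peaks, yellow bars loci in them, and the number of loci stands on each bar. Outside H3K27ac 691 loci were called in both 6 h libraries alone and 80 at 0 h alone, and in H3K27ac 374 and 530.

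By single list, counts that rest on the same calls were as follows. Of the 10115 and 9724 peaks of the 0 h libraries, 93 (0.919%) and 100 (1.03%) lay outside genes and H3K27ac. Of the 14732 and 10587 peaks of the 6 h libraries, 1060 (7.20%) and 995 (9.40%) did. The share was higher in each 6 h library than in each 0 h library. Most of these 6 h peaks belong to the 691 loci, so the counts are no separate support. With 2 libraries against 2, the smallest p that a two-sided exact permutation test allows is 0.333, so none was made. A missing GR peak means only that the signal in that library stayed under the peak caller's limit, not that GR was absent. The same holds for a missing H3K27ac peak, so these loci are not shown to lack acetylation at 0 h. The read depths and control libraries behind the lists are not given.

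GR peaks at the 691 loci ranged from among the strongest to among the weakest of their libraries. The fold enrichment over background, as the authors' peak caller gave it, ran from 4.20 through a median of 9.73 to 31.7 in 6 h replicate 1, and from 3.80 through a median of 9.49 to 38.3 in replicate 2. The quartiles were 7.75 and 13.0 in replicate 1 and 7.34 and 12.6 in replicate 2. The medians of the whole lists were 7.89 and 6.89. Ranked by the p-value of the peak, 111 of the loci (16.1%) were in the top 10% of the replicate 1 list and 158 (22.9%) in the top 10% of the replicate 2 list. In the stronger 50% of each list there were 431 (62.4%) and 512 (74.1%), and in the top 1% there were 8 of each list. The loci had to be called in both 6 h lists, which removes weak peaks, and the whole lists carry no such requirement. These medians and shares therefore do not show that the class is stronger than the lists. The median widths of the peaks were 315 and 310 bp, against 393 and 322 bp in the whole lists. They were 316.5 and 307.5 bp at the 932 loci called only at 6 h inside genes and outside H3K27ac.

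The 2 libraries ranked the loci alike. Across the 691 loci the log2 fold enrichments had a Pearson r of 0.80 and the fold enrichments a Spearman coefficient of 0.76. This is across loci that share 2 libraries and were required to have a peak in both, so it describes these libraries and carries no p. Replicate 2 was the higher in 303 loci (43.8%), with a median difference on the log2 scale of -0.06 (SD 0.35, n = 691 loci). The summits of both libraries lay a median of 26 bp apart and within 50 bp of each other at 539 loci (78.0%, 74.8 to 80.9). The corresponding share was 71.1% at the 374 loci of the same kind in H3K27ac, 66.5% at the 932 loci called only at 6 h inside genes and outside H3K27ac, 49.2% at the 258 within 1 kb of gene ends, and 54.6% at the 5012 loci called in all 4 libraries. Peak widths were not matched between these classes. Their medians in replicates 1 and 2 were 315 and 310 bp for the 691 loci, 316.5 and 307.5 bp for the 932, and 604 and 381 bp for the 5012.

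**Figure D2:**
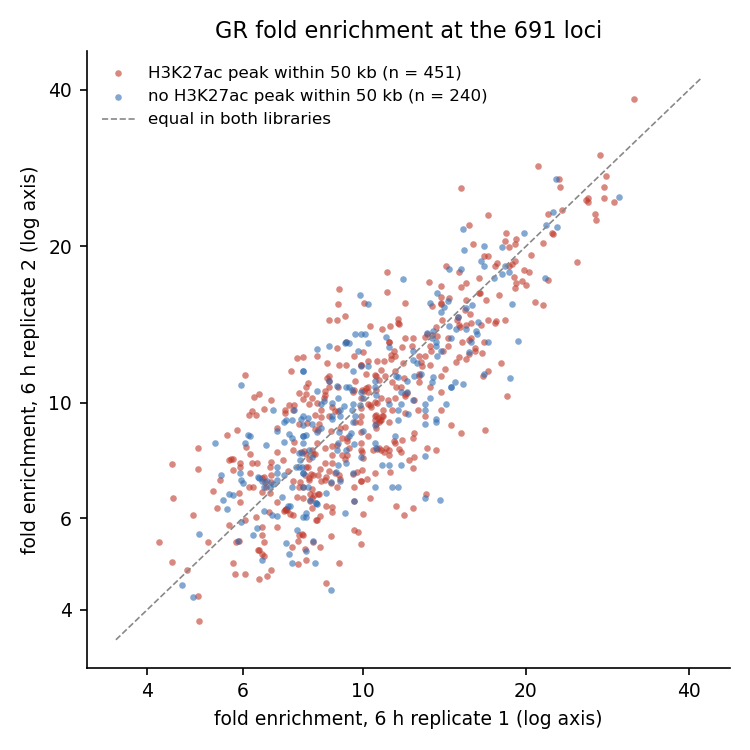
Fold enrichment over background of each of the 691 loci in 6 h replicate 1 (x axis) and replicate 2 (y axis), both on log axes, with 1 point per locus. Red points are the 451 loci with an H3K27ac peak within 50 kb and blue points the 240 without, and both sets lie along the line of equal enrichment.

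Beside the other classes of loci called only at 6 h, the 691 loci had the highest median fold enrichment in each library. In replicate 1 the medians were 9.73 for these loci, 9.01 for the 374 outside genes in H3K27ac and 8.98 for the 932 inside genes outside H3K27ac. They were 8.76 for the 550 inside genes in H3K27ac and 7.60 for the 258 near gene ends. In replicate 2 they were, in the same order, 9.49, 8.12, 8.43, 7.90 and 6.42. The interquartile ranges overlapped between all of these classes. By −log10 p the order differed in replicate 1. There the median was 28.4 for the 691 loci, 29.1 for the 374 outside genes in H3K27ac and 28.5 for the 550 inside genes in H3K27ac. In replicate 2 these medians were 31.7, 28.8 and 27.1. Loci called in all 4 libraries outside genes had medians of 9.76 and 7.36, so that they stood level with the class in replicate 1 and below it in replicate 2. The 310 and 254 loci that met every criterion but a call in the second 6 h library had lower medians, at 7.03 in replicate 1 and 7.34 in replicate 2. Loci of 1 library are not replicates, so no test was made of any of these differences, and the requirement of 2 calls removed weak loci from each class.

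**Figure D3:**
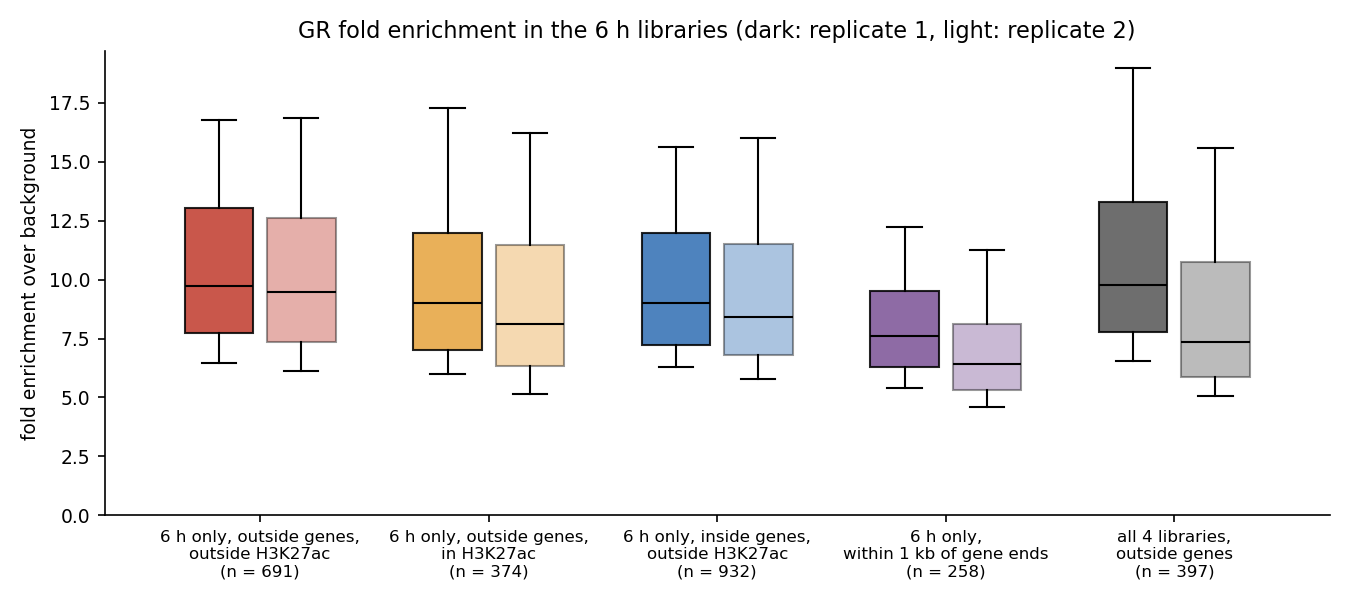
Fold enrichment over background in 6 h replicate 1 (dark) and replicate 2 (light) for 5 classes of GR loci; boxes span the quartiles, the black line is the median and whiskers reach the 10th and 90th percentiles. The leftmost pair is the 691 loci, with medians of 9.73 and 9.49.

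Enrichment varied little with surroundings. The 147 loci with an H3K27ac peak up to 5 kb away had median fold enrichments of 9.94 and 9.36, the 304 with one 5 to 50 kb away 9.93 and 9.69, and the 240 with none within 50 kb 9.48 and 9.38. The 71 loci up to 5 kb from a protein-coding gene had medians of 9.62 and 9.26, and the 308 loci over 50 kb from one 9.60 and 9.69. All of these medians lay well inside the quartiles of the whole class.

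The distances of the loci to genes and to acetylated chromatin were bounded from below by the rule and ran over several orders of magnitude. The nearest protein-coding gene was a median of 37144 bp away (95% interval of the median 32479 to 44918). There was a gene within 50 kb of 383 loci (55.4%) and none within 100 kb of 192 (27.8%). The median was 23189 bp for the loci in H3K27ac and 12834 bp for the loci outside genes that were called in all 4 libraries. Where the strand of the nearest gene was given, 306 of 559 loci (54.7%) lay upstream of it.

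The nearest H3K27ac peak was a median of 23306 bp away (18929 to 27593). It was within 1 kb at 46 loci (6.66%) and within 5 kb at 147 (21.3%). At the other extreme, 240 loci (34.7%, 31.3 to 38.4) had no H3K27ac peak within 50 kb, against 166 (17.8%, 15.5 to 20.4) of the 932 loci inside genes and outside H3K27ac, and 6 (1.51%) of the 397 loci outside genes called in all 4 libraries. Of those 397 loci, 383 (96.5%) overlapped an H3K27ac peak, so the contrast with them is largely set by the rule. The nearest 0 h GR peak was a median of 62469 bp away, and 299 loci (43.3%, 39.6 to 47.0) had one within 50 kb. That share was 67.9% (63.0 to 72.4) among the loci outside genes in H3K27ac and 60.6% (57.4 to 63.7) among those inside genes outside H3K27ac. The intervals cover counting error only, no test was made between the classes, and the distances of one locus to genes, H3K27ac and 0 h peaks are not independent of one another.

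**Figure D4:**
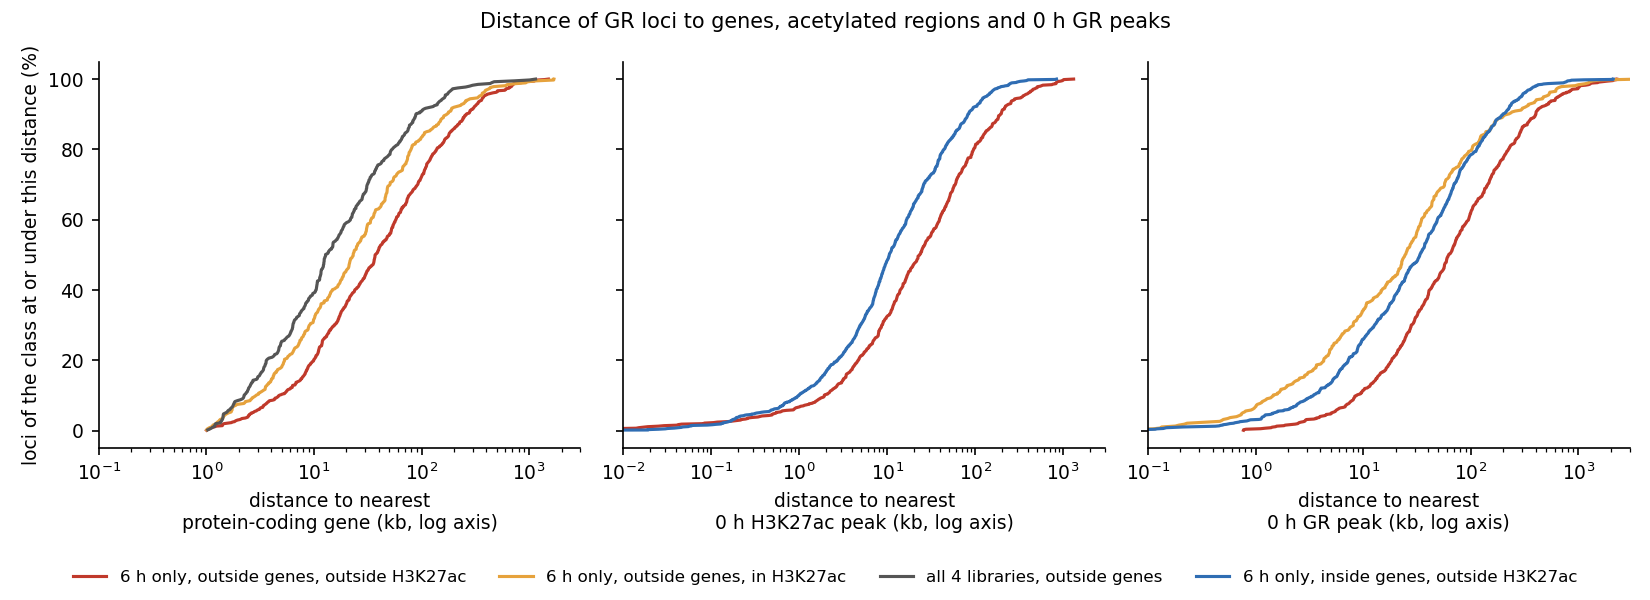
Cumulative share of loci, in percent of each class, by distance in kb (log axes) to the nearest protein-coding gene, 0 h H3K27ac peak and 0 h GR peak. The red curve of the 691 loci lies to the right of the others over most of the range, with medians of 37144, 23306 and 62469 bp.

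The genes next to the loci were often acetylated themselves. The 691 loci had 544 distinct nearest genes, of which 332 (61.0%, 56.9 to 65.0) carried an H3K27ac peak within 1 kb of either end, against 48.5% of all 21631 protein-coding genes. For the loci outside genes in H3K27ac the share was 69.4%, and for those inside genes outside H3K27ac 68.9%. A GR locus called in all 4 libraries lay within 1 kb of an end of 160 of the 544 (29.4%), against 20.7% of all genes. A nearest gene is a neighbour on the chromosome, and nothing in the lists ties a locus to the gene it acts on.

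The loci were spread over all chromosomes studied, with the most on chromosome 13 (57) and chromosome 2 (56) and the fewest on X (7). As a share of the loci called only at 6 h on the same chromosome, they ran from 16.2% on chromosome 19 to 37.0% on chromosome 13.

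The locus with the best mean rank in both 6 h lists was chr13:51026188-51026905, 71029 bp upstream of Spin1, which encodes a reader of methylated histone H3. Its fold enrichments were 31.7 in replicate 1 and 38.3 in replicate 2, where it was the 7th strongest peak of the list. An H3K27ac peak lay 2486 bp from it and the nearest 0 h GR peak 50656 bp. Next came a locus 41315 bp from Gramd1b, which encodes a carrier of cholesterol from the plasma membrane to the endoplasmic reticulum (25.8 and 24.6), and one 73050 bp from Cd2, an adhesion receptor gene of T cells (21.0 and 28.5). The locus between Ryk, a Wnt receptor gene, and Slco2a1, which encodes a prostaglandin transporter, had values of 27.9 and 26.1 and lay 60165 bp from Slco2a1.

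Others of the 20 best loci lay beside genes of varied kinds. A locus 9235 bp from Gclc, the gene of the catalytic subunit of the enzyme that limits glutathione synthesis, had fold enrichments of 27.3 and 30.0. One between Leprot and the leptin receptor gene Lepr, 30142 bp from the latter, had 23 and 26.9. One 204022 bp upstream of Cited2, which encodes a partner of the acetyltransferases CBP and p300, had 23.1 and 26.1 and lay in the lncRNA gene Gm32543.

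A locus 22097 bp from Socs2, which encodes a suppressor of cytokine and growth hormone signalling, and 37115 bp from Cradd had values of 26.9 and 22.5. One between Snx13 and Ahr, the aryl hydrocarbon receptor gene, lay 213083 bp from the latter, with 22.8 and 26.9. The locus 34054 bp upstream of Atp2b1, which encodes a calcium pump of the plasma membrane, had 22.4 and 21.1, and the Gm35268 locus shown above is also among the 20. Further loci were near Fignl2 and Ankrd33 (26 and 24.3), Rab21 and Tmem19 (28.1 and 27.3) and Slc16a11 and Clec10a (23.3 and 23.5). There were also 2 upstream of Abhd2. Others lay far from their nearest gene, at 391151 bp from Mmadhc (26 and 24.7), 368954 bp from Atp6ap1l (20.5 and 19.3) and 216238 bp from Rnd3. In all 20 both libraries were above 19-fold, about double the class median.

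The loci gathered in places. Counting loci within 50 kb of one another as a group, 197 of the 691 (28.5%, 25.3 to 32.0) were in 83 groups of 2 or more, and 494 stood alone. The share in groups was 21.7% among the 374 loci outside genes in H3K27ac and 32.5% among the 932 inside genes outside H3K27ac. A larger class has more loci that can be neighbours, and class size was not matched. These shares therefore do not compare the tendency to gather. Among the 691 loci there were 60 pairs, 19 groups of 3 and 4 larger groups.

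The largest group held 7 loci over 86354 bp of chromosome 2 between Rnd3, which encodes an atypical small GTPase that opposes actin contraction, and the taste receptor gene Tas2r134 (chr2:51288722-51375075). No H3K27ac peak and no other GR locus lay in that span, the nearest protein-coding gene was 139611 bp away, and the lncRNA gene Gm13497 overlapped it. In order along the chromosome the fold enrichments in replicate 1 were 19.3, 9.29, 18, 12.4, 6.73, 29.7 and 5.33. In replicate 2 they were 13.1, 13.1, 17.7, 12.6, 6.89, 24.9 and 8.36. In both libraries the sixth locus was the strongest, and the fifth was the weakest in replicate 2 and the last in replicate 1.

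The next group held 5 loci over 87054 bp around Errfi1, which encodes an inhibitor of epidermal growth factor receptors and responds to glucocorticoids in many cells. Their fold enrichments ran from 5.83 to 16.9 in replicate 1 and from 5.40 to 15.8 in replicate 2, with the highest values at the locus 2742 bp downstream of the gene. Unlike the Rnd3 group, it was interleaved with 4 H3K27ac peaks and 3 other GR loci, 1 of them called in all 4 libraries. Of the groups of 4, one lay 649562 bp from Cited2, with values of 7.63 to 11.9 and 8.0 to 11.1. The other lay between the phospholipase C genes Plcb1 and Plcb4, 61212 bp from the former, with values of 4.97 to 11.2 and 7.26 to 12.1. Among the groups of 3, that with the best ranked locus lay upstream of Abhd2, which encodes a serine hydrolase, with fold enrichments of 29.1, 11.4 and 26.8 in replicate 1 and 24.3, 12.3 and 23 in replicate 2.

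**Figure D5:**
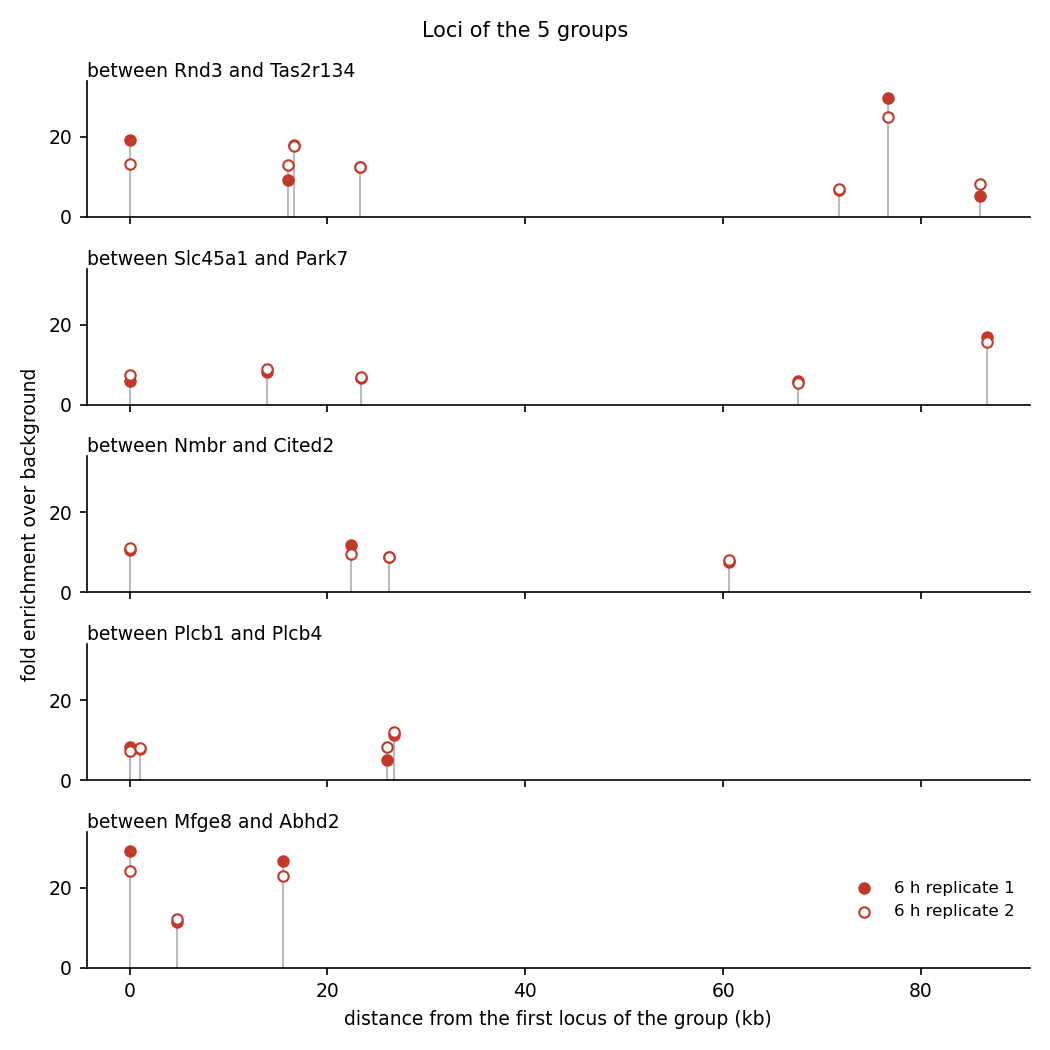
Fold enrichment over background (y axis, from 0) of the loci of the 5 groups named in the text, by distance in kb from the first locus of each group; filled points are 6 h replicate 1 and open points replicate 2. The group between Rnd3 and Tas2r134 spans 7 loci and 86354 bp, and its sixth locus was the strongest in both libraries.

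Of the 21631 protein-coding genes, 718 (3.32%) had at least 1 of the loci within 50 kb of their span, 651 of them with 1, 54 with 2 and 13 with 3. Of the 245 genes in 14 lists that were looked at by function, 24 (9.80%) did, with 27 different loci. The lists were drawn up with earlier results of these data known, so these counts are given as a description beside that background.

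Among genes that the luteinising hormone surge induces in the follicle, 3 of 25 had a locus within 50 kb. Tnfaip6, whose product cross-links hyaluronan in the cumulus matrix, had 2, at 17945 bp (6.51 and 5.57) and 48137 bp upstream (10.6 and 9.12). Pgr, the progesterone receptor gene that ovulation requires, had 1 at 30960 bp upstream (9.65 and 6.90), with an H3K27ac peak 1119 bp from it. Snap25, which encodes a protein of regulated secretion, had 1 at 23290 bp (4.99 and 3.80), whose value in replicate 2 was the lowest of all 691. A locus of any kind called only at 6 h lay within that distance of 15 of the 25, against 3616 of all 21631 protein-coding genes (16.7%) and 6 of 15 housekeeping genes.

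None of 20 genes of luteinisation and steroid synthesis had a locus of the class within 50 kb, and 9 had another locus called only at 6 h. For a list of 20, none is close to the 3.32% of all protein-coding genes. Within 100 kb, 2 of the 20 had a locus of the class. Among 22 genes of the response to follicle-stimulating hormone and of granulosa identity, 3 had a locus of the class within 50 kb. Within 25 kb 1 of the 22 did, and within 100 kb 4. Gata6, a transcription factor gene of the follicle's somatic cells, had a locus at 36268 bp with fold enrichments of 20.8 and 15.6. Lrp8, which encodes a receptor for apolipoprotein E, had one at 1053 bp upstream (8.58 and 11.9), and Wt1, which encodes a transcription factor of the developing gonad, at 39279 bp (9.08 and 7.07).

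Among 24 genes known to respond to glucocorticoids in other cells, 4 had a locus. Tsc22d3, which encodes an anti-inflammatory leucine zipper protein, had one 33341 bp downstream (15.5 and 17.0), although Prps1 lay nearer to it. Dusp1, which encodes a phosphatase of MAP kinases, had one 6288 bp upstream (8.97 and 8.31), and Angptl4, which encodes an inhibitor of lipoprotein lipase, one at 7004 bp (7.84 and 10.4). Errfi1 had 3 of the 5 loci of its group within 50 kb. Among 10 genes that handle glucocorticoids, H6pd, which supplies the cofactor for the reductase that regenerates active glucocorticoid, had one at 22104 bp downstream (15.7 and 12.4).

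Among 20 genes of matrix and vessels, 4 had a locus. These were the protease genes Mmp19 (11175 bp away; 9.97 and 8.04) and Plau (32967 bp; 9.58 and 7.29), the integrin gene Itgav (39636 bp; 6.44 and 5.21) and the angiogenic factor gene Vegfa (41560 bp; 12.4 and 8.74). Within 25 kb, 1 of the matrix and vessel genes had a locus, and within 100 kb 6 did. Of all 21631 protein-coding genes, 718 had one within 50 kb (3.32%), 395 within 25 kb and 1267 within 100 kb. Among 20 genes of inflammation and prostaglandins, 4 had a locus within 50 kb. Lif, a cytokine gene, had 2 downstream, of which the farther, at 37190 bp, was strong (22.8 and 21.7) and the nearer was not (7.15 and 6.20). The neutrophil chemokine genes Cxcl1 and Cxcl2 shared 1 locus (8.30 and 6.68), and Ptgs1, a cyclooxygenase gene, had one 20213 bp downstream (9.05 and 8.80) with no H3K27ac peak nearer than 141331 bp.

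Among clock genes, Nfil3 had a locus, described above, and of 20 genes of AP-1 and other early factors Ier3 had one (11.7 and 8.04), which began 41 bp from an H3K27ac peak. Among markers of other cell types, Pdgfra, a gene of theca and other stromal cells, had one at 9724 bp (8.24 and 10.6), making 1 of 11 theca markers. None of 14 oocyte, 14 leukocyte and 13 endothelial markers did, although 1 oocyte and 1 endothelial marker had a locus within 100 kb. For lists of 13 or 14, none is close to the 3.32% of all protein-coding genes, so the zeros do not speak to purity. Loci of any class called only at 6 h lay within 50 kb of 2 oocyte, 3 leukocyte and 2 endothelial markers. The share of all protein-coding genes was 16.7%. Of 15 housekeeping genes Ywhaz had one within 50 kb (9.79 and 5.63).

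Non-coding genes overlapped part of the class. At 156 of the 691 loci (22.6%, 19.6 to 25.8) the locus overlapped an annotated lncRNA gene, against 21.1% (17.3 to 25.5) of the loci outside genes in H3K27ac and 38% (33.4 to 42.9) of the loci outside genes called in all 4 libraries. Among the best ranked were those in Gm32543, Gm35268 with the antisense Gm35438, 2310039L15Rik and Gm35111. Enrichment was alike over and away from lncRNA genes, with medians of 9.46 and 9.33 at the 156 and 9.87 and 9.56 at the other 535. Within 10 kb of microRNA genes there were 8 loci beside 9 such genes. No share of other GR loci or of all microRNA genes stands beside this count, so it only names neighbours. The nearest locus was 887 bp from Gm51276 (8.28 and 8.86), followed by one 3557 bp from Mir21a (8.27 and 6.69), whose product is abundant in luteinising granulosa cells. The others lay near Mir8098, Mir6930, Mir6390, Mir710 and Mirlet7a-2, and 1 locus lay within 10 kb of both Mir145a and Mir143.

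Some loci were remote from any gene. The 3 farthest lay 1510624 bp from Cntnap5a (6.65 and 4.64), 1387960 bp from Nmbr (11.5 and 8.65) and 1169723 bp from Cdh8 (9.60 and 9.17). Beside the class medians of 9.73 and 9.49, only the locus near Nmbr was higher in replicate 1, and none of them was higher in replicate 2.

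At the limits of the rule, values are given for the loci just inside and just outside. The nearest to a gene were 1005 bp from Errfi1 (5.83 and 5.40) and 1015 bp from Sftpb (6.40 and 5.21), and those just under the limit were 999 bp from Dpep2 (16.2 and 15.7) and 883 bp from Rassf8 (9.29 and 7.12). The nearest to H3K27ac were 1 bp from a peak, near Ywhaq (8.03 and 7.29), and 2 bp from one, near Pik3cg (7.26 and 6.23). The loci left out for the smallest overlaps shared 3 bp with an H3K27ac peak near Parm1 (6.70 and 5.03) and 7 bp near Slc25a33 (25.4 and 20.6). The lowest −log10 p among the loci was 10.2, in replicate 1 near Gfod1, and the next 10.5, near Auts2, in lists that reached down to 9.02 and 9.10.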

How the data were processed

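The 5 deposited peak lists of wild-type cells were used. Per the submitters' processing notes, reads were aligned with Bowtie2 2.4.5 to mm10 and peaks called with MACS2. Not given in the sources used here were the MACS2 version and settings, the control and the read depths. Each GR list held the authors' positions and, per peak, a fold enrichment (ratio over background) and a score (the truncated value of 10 times −log10 p). It also held −log10 p, −log10 q-value and the summit, all deposited per library. The lowest −log10 p was 9.00 to 9.10. The H3K27ac list was read as positions and peak names, without strength values. Peaks off chromosomes 1 to 19 and X (4, 4, 16 and 1) were left out. Loci, distances (position differences), classes and groups were computed with Python 3.11.15, pandas 2.3.3, NumPy 2.4.6 and SciPy 1.17.1 and tested on simulated data. A locus with several peaks in a library took the peak with the highest −log10 p. Genes came from RefSeq (GRCm38.p6: 21631 protein-coding, 12697 lncRNA). The planned motif search around every summit needed a genome, so RefSeq promoter windows were searched instead. No result comes from a test over libraries.

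The class and gene lists were chosen with earlier results of these data known. Named were the 20 best loci by mean rank of −log10 p, list genes within 50 kb, the 5 largest groups (a tie at 3 loci broken by best rank), the 3 farthest loci, those at the rule's limits, the 5 best lncRNA overlaps and microRNA genes within 10 kb. One locus that this rule names, with its neighbouring gene, is not reported here.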

Additional observations from a re-analysis of the deposited data

How the results depend on the processing

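The number of loci, 691, was 387 with peaks at or above each list's median −log10 p and 442 at over 20 kb from genes, and between 494 and 678 under the other settings. Leaving out 1 library in turn gave 697 to 1007, the highest without 6 h replicate 2. The share of loci called only at 6 h, 24.6%, was 26.4% with equal numbers of strongest peaks and 26.4% with summits within 100 bp, and fell to 23% and 19.4% with no H3K27ac peak within 1 kb or 5 kb. It was 22.1% and 15.8% at over 5 kb or 20 kb from genes, 17.6% with all annotated genes avoided, and 17.5% to 22.2% with 1 library left out. At −log10 p of 15 or more the median fold enrichments were 10.1 and 9.95. The median distance to a protein-coding start site was 62938 bp, which needs the strand and so covers fewer genes. Windows of 25 kb and 100 kb gave 395 and 1267 genes, and leaving out 1 library gave 722 to 1042. The causes were not tested, beyond what each setting removes by construction. The search with 2 mismatches was chosen after seeing the data. Motif windows of 50 and 200 bp were not run, for want of a genome.

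No paired analysis was possible because no result comes from a test over libraries, although the labels give both times the replicate numbers 1 and 2. Precision is limited by 2 libraries per time, 1 H3K27ac library and unknown read depth; intervals cover counting error only.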

Other observations

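Other groups of 3 loci, chosen after their values were seen, lay as follows. A group between Cradd and Socs2 covered 6167 bp of chromosome 10 inside the lncRNA gene 2310039L15Rik, with fold enrichments of 7.85 to 26.9 in 6 h replicate 1 and 7.14 to 22.5 in replicate 2, and no H3K27ac peak in the span. On chromosome 14, 3 loci over 12086 bp lay in the T cell receptor region (Tcra, Tcrd, Trdc and Trdj2), whose gene segments are not annotated as protein-coding genes. Their fold enrichments were 24.8, 7.44 and 9.98 in replicate 1 and 18.6, 6.09 and 7.41 in replicate 2, and the nearest protein-coding gene was Dad1, 86931 bp from the closest of them. A group between Runx1, a transcription factor gene, and Setd4 lay 365653 bp from the former and 363387 bp from the latter, with values of 6.30 to 15.8 and 7.86 to 14.8.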
